A study of Danio rerio with 4 samples.

Results

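The comparison described here is that of testes exposed to diisobutyl phthalate (DiBP) with control testes in zebrafish. Genes were taken as the Ensembl identifiers with a mean of at least 1 FPKM over the 4 libraries of the series. Of 35066 Ensembl identifiers 17093 passed, and merging those with identical values in every library left 15843 genes, 14435 of them with a symbol. The fish were wild-type adults of the AB strain, 5 months old and exposed for 30 days. The groups were DiBP alone, dibutyl phthalate (DBP) alone, DBP+DiBP together, and an unexposed control, and each was represented by 1 library. Every fold given below therefore describes 2 libraries, with no replicate check, no test and no interval. The labels state neither doses nor whether the testes of several fish were pooled, and they call the fish male where the design text calls them female.

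DiBP is a plasticizer whose ester chains are branched, and DBP is its isomer with linear chains. Phthalates of this size are known in mammals for lowering androgen synthesis in the fetal testis and for altering the contact between Sertoli cells and germ cells. The zebrafish testis consists of cysts in which Sertoli cells enclose synchronous germ cells, from spermatogonia through meiotic spermatocytes to flagellated spermatids and sperm. Steroid-producing Leydig cells, contractile peritubular and vascular cells, and resident leukocytes lie between the tubules. Each library measured all of these cells at once, so fewer cells of a type and less RNA per cell cannot be told apart.

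Expression values were read as FPKM, a unit that neither headers nor labels give. In FPKM read fragments are divided by the length of the transcript and the size of the library. Genes were compared as log2(FPKM + 1) in DiBP minus control, which understates the ratio of weakly expressed genes. A difference of at least 1 on this scale, that is 2-fold, was counted as higher or lower. DiBP testis had 563 genes higher than control (3.55% of those compared) and 426 lower (2.69%), while 14854 (93.8%) lay within 2-fold. The median difference was 0.02, and the central 90% of genes lay between -0.79 and 0.88. Past 4-fold there were 57 genes higher and 36 lower. Of the 563 higher genes 36 averaged under 1 FPKM over the other 3 libraries, and of the 426 lower genes 45 did so without control. These met the filter only through the library in which they were high, so their calls follow in part from the filter, and those among the genes named below are marked. The share lower in DiBP was 5.37% among the 708 genes averaging 100 FPKM or more, against 2.65% among the 7014 genes averaging 1 to 5 FPKM. The shares higher in those classes were 2.97% and 3.29%. The balance between higher and lower calls depended on scaling. With the totals of the 4 libraries made equal, 72.2% of calls were higher in DiBP, against 56.9% as deposited, and the median moved to 0.14. Leaving the mitochondrially encoded and heat shock 70 genes out of the totals gave 67.6%. The deposited values summed to 547485 FPKM in the DiBP library and 604779 FPKM in the control library. The sequencing depth of either library is unknown.

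**Figure D1:**
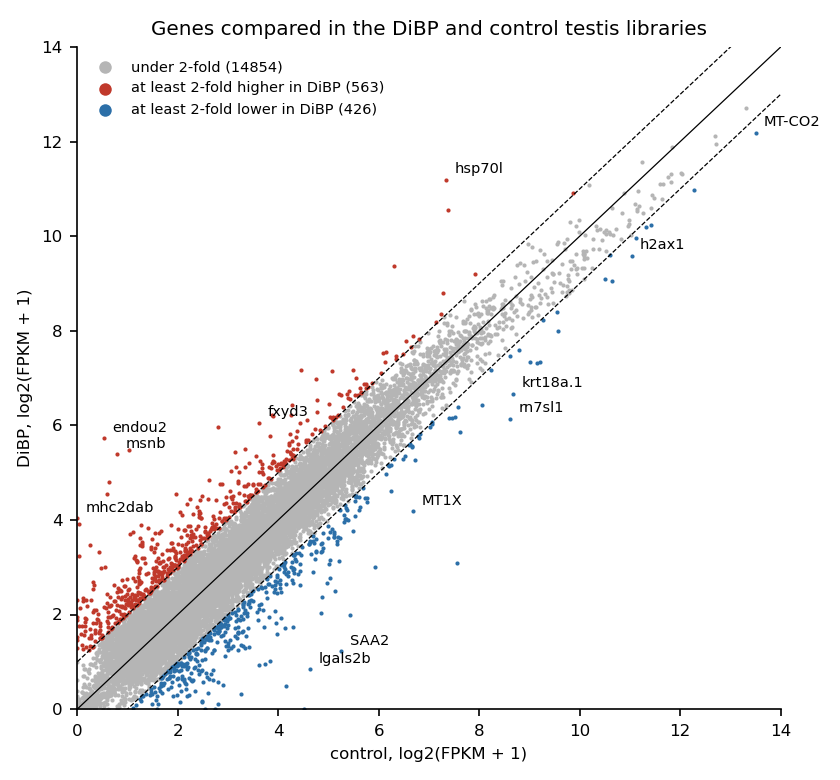
Each point is 1 of the 15843 genes, with log2(FPKM + 1) in the control library on the x axis and in the DiBP library on the y axis. The solid line marks equal values and the dashed lines a 2-fold difference; 563 genes lie on or above the upper line and 426 on or below the lower one.

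At the 2-fold limit itself, traf5, a TNF receptor adaptor, had 38.2 FPKM in DiBP against 18.6 FPKM in control testis and was counted. EPN3, an endocytic adaptor, had 10.3 FPKM in DiBP against 4.63 FPKM in control testis and stayed just under the limit. On the lower side ppdpfb had 65.9 FPKM in DiBP against 133 FPKM in control testis and was counted. KLF6, a zinc finger factor, had 9.91 FPKM in DiBP against 20.7 FPKM in control testis and was not.

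Among genes with a settled name that averaged 5 FPKM or more, the 12 highest ratios came from several families. endou2, a member of the poly(U)-specific endoribonuclease family, had 51.8 FPKM in DiBP, 36.5 FPKM in DBP, 17.4 FPKM in DBP+DiBP and 0.448 FPKM in control testis. It was low in control alone, and DiBP minus control was 5.19 on the log2(FPKM + 1) scale. msnb, a moesin that ties actin to the plasma membrane, had 41.1 FPKM in DiBP, 51.3 FPKM in DBP, 7.54 FPKM in DBP+DiBP and 0.732 FPKM in control testis. The DiBP and DBP libraries were the high pair, with DBP+DiBP between them and control. pnrc1, a coactivator of nuclear receptors, had 61.9 FPKM in DiBP, 40.1 FPKM in DBP, 21 FPKM in DBP+DiBP and 6.0 FPKM in control testis. taok2a, a kinase of the TAO family upstream of stress MAP kinases, had 9.01 FPKM in DiBP, 11.7 FPKM in DBP, 6.49 FPKM in DBP+DiBP and 0.358 FPKM in control testis. In both genes control was the lowest of the 4 libraries. cngk, a cyclic nucleotide-gated potassium channel known from zebrafish sperm, had 142 FPKM in DiBP, 91.5 FPKM in DBP, 58 FPKM in DBP+DiBP and 20.9 FPKM in control testis, again with control lowest. hsp70l and hsp70.3, inducible chaperones, were the most abundant of these genes, at 2342 and 1511 FPKM in DiBP against 161 and 165 FPKM in control. They were part of 10 heat shock 70, 90 and 40 family genes higher and 3 lower of 85.

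**Figure D2:**
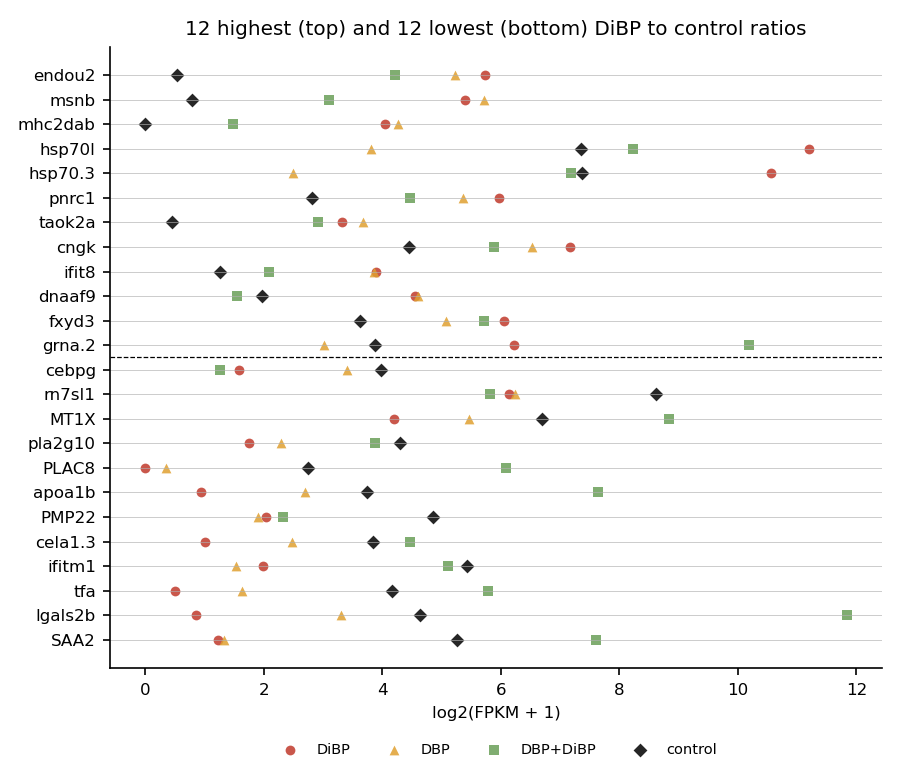
The 12 named genes with the highest ratio of DiBP to control (above the dashed line) and the 12 with the lowest (below it), each with log2(FPKM + 1) on the x axis in 1 library per group. DiBP lies to the right of control in the upper genes and to the left in the lower ones, and for SAA2, lgals2b, tfa, cela1.3, apoa1b, PLAC8 and MT1X the DBP+DiBP library lies furthest to the right.

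The 12 lowest ratios were led by secreted and membrane proteins. SAA2, an acute-phase serum amyloid A, had 1.33 FPKM in DiBP, 1.52 FPKM in DBP, 193 FPKM in DBP+DiBP and 37.2 FPKM in control testis. It was low under either single exposure, and DiBP minus control was -4.03 on the same log2 scale. lgals2b, a galectin, had 0.805 FPKM in DiBP, 8.81 FPKM in DBP, 3666 FPKM in DBP+DiBP and 23.9 FPKM in control testis, so that the joint exposure stood far above the other libraries. ifitm1, an interferon-induced membrane protein, had 2.96 FPKM in DiBP, 1.89 FPKM in DBP, 33.7 FPKM in DBP+DiBP and 42.3 FPKM in control testis. PMP22, a tetraspan membrane protein of myelin and epithelia, had 3.1 FPKM in DiBP, 2.74 FPKM in DBP, 4.0 FPKM in DBP+DiBP and 28 FPKM in control testis. Control was the highest library for both. rn7sl1, the RNA of the signal recognition particle, had 69.6 FPKM in DiBP, 74.6 FPKM in DBP, 55 FPKM in DBP+DiBP and 391 FPKM in control testis, with the 3 exposed libraries close together below control. cebpg, a bZIP transcription factor, had 1.99 FPKM in DiBP, 9.52 FPKM in DBP, 1.4 FPKM in DBP+DiBP and 14.7 FPKM in control testis, low in DiBP and in DBP+DiBP. PLAC8 was listed at 0 in DiBP and had 5.69 FPKM in control. pla2g10, a secreted phospholipase, had 2.35 FPKM in DiBP against 18.7 FPKM in control testis.

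To look beyond single genes, 116 lists of gene families and pathways were counted, and 3 kinds of pattern appeared. In some lists a large share of members passed 2-fold. In others few members passed but nearly all leaned the same way. In most lists the counts stayed near the shares over all genes.

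**Figure D3:**
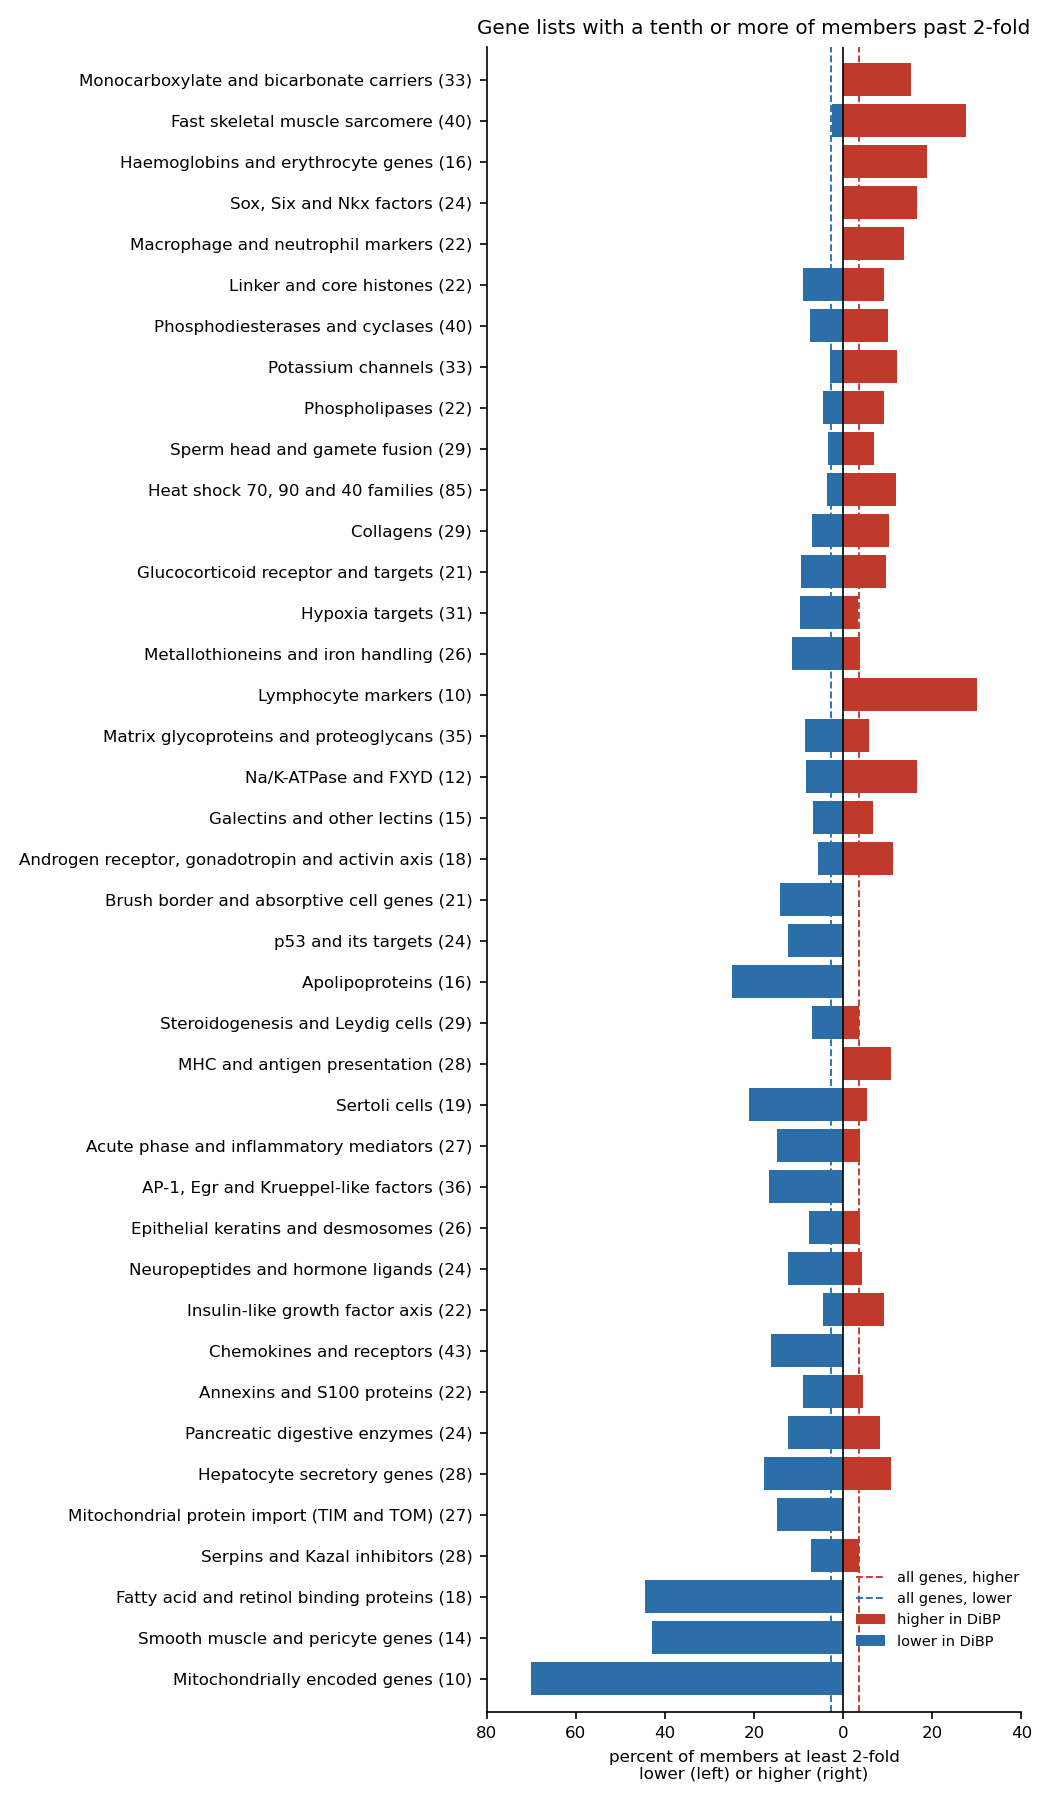
Share of each list's members at least 2-fold higher (red, right) or lower (blue, left) in DiBP than in control, for lists of 10 or more measured members in which these shares add up to 10% or more, ordered by median ratio. Member numbers are in parentheses and the dashed lines show the shares over all genes, 3.55% higher and 2.69% lower; mitochondrially encoded, smooth muscle, and fatty acid and retinol binding genes extend furthest to the left, and lymphocyte and sarcomere genes furthest to the right.

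Genes of the sperm flagellum formed a large group that leaned upward. The axoneme is the microtubule core of the flagellum, moved by dynein arms and braced by radial spokes and tektins. Of 101 measured axonemal genes 9 were higher and 1 lower in DiBP, 91 had a difference above 0, and the median was 0.50, against 0.02 over all genes. The median stayed between 0.43 and 0.64 under every alternative of filter, pseudocount and scaling that was run. dnaaf9, an assembly factor for dynein arms, had 22.3 FPKM in DiBP, 23.2 FPKM in DBP, 1.92 FPKM in DBP+DiBP and 2.9 FPKM in control testis. The values split the libraries into the single exposures, which were high, and DBP+DiBP and control, which were low, with a log2 difference of 2.58 between DiBP and control. dnaaf2, a cytoplasmic chaperone of the same assembly step, had 65.7 FPKM in DiBP, 80.3 FPKM in DBP, 42 FPKM in DBP+DiBP and 20.5 FPKM in control testis. dnah9, an outer arm dynein heavy chain, had 21.4 FPKM in DiBP, 21.4 FPKM in DBP, 14.7 FPKM in DBP+DiBP and 6.83 FPKM in control testis. DNAI1, an outer arm intermediate chain, had 40.6 FPKM in DiBP, 31.7 FPKM in DBP, 22.9 FPKM in DBP+DiBP and 13.9 FPKM in control testis. In these genes control was the lowest library, followed by DBP+DiBP. CFAP157, a cilia- and flagella-associated protein, had 6.47 FPKM in DiBP, 13.7 FPKM in DBP, 2.3 FPKM in DBP+DiBP and 2.15 FPKM in control testis.

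Intraflagellar transport carries building blocks along growing cilia and flagella, and the BBSome is its cargo adaptor. Of 29 measured genes of these complexes only BBS9 passed 2-fold, at 10.2 FPKM in DiBP against 4.55 FPKM in control testis, yet 28 had a difference above 0 and the median was 0.44. IFT46, a subunit of the anterograde train, had 250.2 FPKM in DiBP, 336 FPKM in DBP, 186 FPKM in DBP+DiBP and 190.4 FPKM in control testis, and ift27, a small GTPase of the train, had 227 FPKM in DiBP, 216 FPKM in DBP, 155 FPKM in DBP+DiBP and 185 FPKM in control testis. DiBP exceeded control in both by less than 2-fold. The tubulin tyrosine ligase-like enzymes add glutamate or glycine chains to axonemal tubulin. None of 11 passed 2-fold, but 10 lay above 0 with a median of 0.57. The list of these enzymes was added after the values had been seen, so its pattern is a description and no support. TTLL1, a glutamylase subunit, had 112 FPKM in DiBP, 94.4 FPKM in DBP, 52.9 FPKM in DBP+DiBP and 64.7 FPKM in control testis, and TTLL3, a glycylase, had 73.2 FPKM in DiBP, 71.4 FPKM in DBP, 43.9 FPKM in DBP+DiBP and 40.7 FPKM in control testis. Kinesins, the microtubule motors, counted 3 higher and 0 lower of 36, with 30 above 0 and a median of 0.30. KIF17, a ciliary motor, had 35.5 FPKM in DiBP, 28.4 FPKM in DBP, 17.8 FPKM in DBP+DiBP and 14.9 FPKM in control testis. kif20a, a motor of cytokinesis, had 50.4 FPKM in DiBP, 29.2 FPKM in DBP, 23.8 FPKM in DBP+DiBP and 23.2 FPKM in control testis. kif1ab, a cargo motor best known from axons, had 2.38 FPKM in DiBP, 2.24 FPKM in DBP, 0.72 FPKM in DBP+DiBP and 0.369 FPKM in control testis. Among 21 tubulins none was higher and 1 lower. The most abundant of them, tuba7l, had 2159 FPKM in DiBP against 1166 FPKM in control testis, and tubb6 had 9.7 FPKM in DiBP against 21.2 FPKM in control testis.

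**Figure D4:**
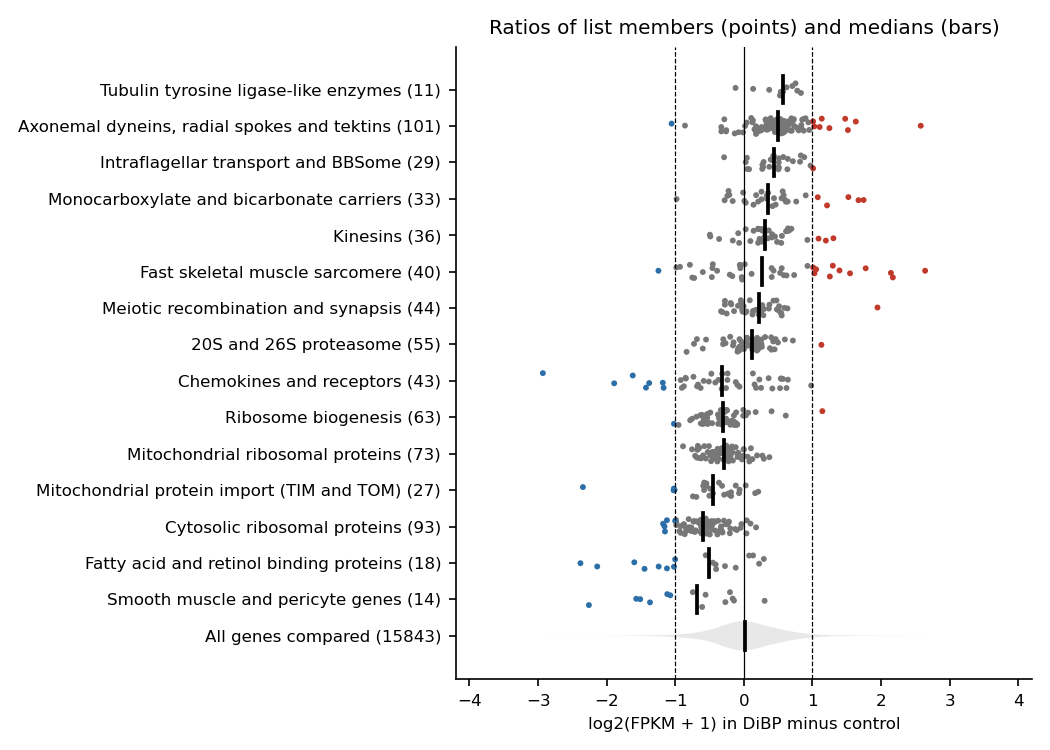
Each point is a list member, placed by its difference in log2(FPKM + 1) between DiBP and control; black bars are list medians, the grey shape at the bottom is the distribution over all 15843 genes, and dashed lines mark 2-fold. The flagellar, transport and kinesin lists sit to the right of 0 with most points inside 2-fold, while cytosolic ribosomal proteins sit to the left of 0. The TIM and TOM list and the tubulin ligase list were added after the values had been seen.

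Among the 6 germ cell markers none passed 2-fold, 4 lay below 0, and the median was -0.17. Their sum was 1607 FPKM in DiBP and 1495 FPKM in control, and TEKT1 and SYCP3 were the 2 above 0. SYCP3, a lateral element protein of the synaptonemal complex, had 532 FPKM in DiBP, 518 FPKM in DBP, 156 FPKM in DBP+DiBP and 342 FPKM in control testis. TEKT1, a tektin of the flagellum, had 419 FPKM in DiBP, 498 FPKM in DBP, 269 FPKM in DBP+DiBP and 308 FPKM in control testis. DDX4, the germ cell helicase Vasa, had 262 FPKM in DiBP, 251 FPKM in DBP, 167 FPKM in DBP+DiBP and 352 FPKM in control testis. PIWIL1, a piRNA-binding protein of germ cells, had 114 FPKM in DiBP against 183 FPKM in control testis. DMC1, the meiotic recombinase, had 103 FPKM in DiBP against 125 FPKM in control testis, and DAZL, an RNA-binding protein of germ cells, had 177 FPKM in DiBP against 184 FPKM in control testis. Whether the share of flagellated cells had a part in the axonemal values was not tested.

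Of 44 genes of meiotic recombination and synapsis 1 was higher, none was lower, and 29 lay above 0. That gene was stag3, a meiosis-specific cohesin subunit, at 54 FPKM in DiBP, 41.3 FPKM in DBP, 15 FPKM in DBP+DiBP and 13.3 FPKM in control testis. The single exposures were high and the other 2 libraries low, as for dnaaf9, and the log2 difference of DiBP from control was 1.95. HORMAD1, an axis protein, had 361 FPKM in DiBP against 351 FPKM in control testis. Cyclins, CDKs and checkpoint genes counted 1 higher and 0 lower of 67, the gene being aurka, a mitotic and meiotic spindle kinase, at 68.5 FPKM in DiBP against 32.9 FPKM in control testis. CDK1 had 315 FPKM in DiBP against 220.0 FPKM in control testis. None of 22 germ plasm and piRNA genes, 7 spermatogonial genes, 52 DNA replication genes or 27 TGF-beta and BMP ligands and Smads passed 2-fold in either direction. The DNA replication genes leaned downward, with 41 of the 52 below 0 and a median of -0.21, or -0.07 with equal totals. DMRT1, the male sex determination factor of Sertoli and germ cells, had 106 FPKM in DiBP against 105 FPKM in control testis. Among 22 histones 2 were higher and 2 lower. h2ax1, a variant that marks DNA breaks and meiotic chromatin, had 768 FPKM in DiBP, 1019 FPKM in DBP, 833 FPKM in DBP+DiBP and 2099 FPKM in control testis. It was the most abundant of the histones past 2-fold. h1m, the maternal linker histone of zebrafish oocytes and germ cells, had 2.38 FPKM in DiBP, 2.79 FPKM in DBP, 0.10 FPKM in DBP+DiBP and 0.0617 FPKM in control testis, and averaged under 1 FPKM without DiBP.

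The genes of protein synthesis leaned the other way. Of 93 cytosolic ribosomal proteins 5 were lower, none was higher, 89 had a difference below 0, and the median was -0.60. Together they summed to 64421 FPKM in DiBP and 100530 FPKM in control. With equal totals the median was -0.45 and 3 were lower. RPS12, of the small subunit, had 1213 FPKM in DiBP, 1505 FPKM in DBP, 2017 FPKM in DBP+DiBP and 2746 FPKM in control testis, and rps20, of the same subunit, had 1166 FPKM in DiBP, 1850.2 FPKM in DBP, 2256 FPKM in DBP+DiBP and 2539 FPKM in control testis. RPL8, of the large subunit, had 335 FPKM in DiBP, 388 FPKM in DBP, 694 FPKM in DBP+DiBP and 748 FPKM in control testis. In each of them DiBP was the lowest library, DBP came next, and control was the highest. RPS23 had 996 FPKM in DiBP against 2213 FPKM in control testis.

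Neighbouring steps of ribosome production leaned the same way with fewer genes past 2-fold. Ribosome biogenesis factors had 57 of 63 members below 0, a median of -0.31, 1 higher and 1 lower. DDX21, a nucleolar helicase, had 47.7 FPKM in DiBP against 97.7 FPKM in control testis, and IMP4, part of the small subunit processome, had 55.3 FPKM in DiBP against 24.5 FPKM in control testis. Of 73 mitochondrial ribosomal proteins none passed 2-fold, but 64 lay below 0 with a median of -0.29. MRPL14 had 95.9 FPKM in DiBP against 131 FPKM in control testis. The TIM and TOM complexes import proteins into mitochondria, and 4 of their 27 members were lower, none was higher, and 24 lay below 0, with a median of -0.45. That list was added after the values had been seen, so its pattern is a description and no support. TIMM17B, a channel subunit of the inner membrane, had 0.106 FPKM in DiBP, 0.197 FPKM in DBP, 0.107 FPKM in DBP+DiBP and 4.62 FPKM in control testis. It met the filter only through control. TIMM10, a small carrier of the intermembrane space, had 47 FPKM in DiBP, 52.4 FPKM in DBP, 54.3 FPKM in DBP+DiBP and 96.7 FPKM in control testis. TIMM8B, of the same family, had 34.8 FPKM in DiBP against 71.6 FPKM in control testis, and tomm7, of the outer membrane channel, had 38.1 FPKM in DiBP against 77.8 FPKM in control testis. With equal totals 1 of the 27 was lower. Nuclear genes of the respiratory chain had 0 of 103 past 2-fold and a median of -0.13, whereas 7 of 10 mitochondrially encoded genes were lower. Translation factors counted 0 higher and 1 lower of 70, a gene carrying the symbol EEF1A1 at 3.33 FPKM in DiBP against 11.2 FPKM in control testis. The abundant elongation factor eef1a1l1 is part of the same list and did not pass 2-fold.

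The proteasome, which degrades ubiquitin-tagged proteins, counted 1 higher and 0 lower of 55, with a median of 0.12. Its most abundant members were PSMA8, the testis-type alpha subunit, at 329 FPKM in DiBP against 289.8 FPKM in control testis, and PSMB1 at 295 FPKM in DiBP against 286 FPKM in control testis. Of 53 cullins and BTB adaptors, a list added after the values had been seen, none passed 2-fold and 39 lay above 0. UBE2W, a ubiquitin-conjugating enzyme, had 1.75 FPKM in DiBP against 7.27 FPKM in control testis, and ube2r2, a partner of cullin ligases, had 227 FPKM in DiBP against 111 FPKM in control testis. In the unfolded protein response of the endoplasmic reticulum 1 of 37 genes was higher and none lower, while 24 lay below 0 and the median was -0.25. The higher gene was EIF2AK3, the stress kinase PERK, at 13.2 FPKM in DiBP against 5.56 FPKM in control testis. atg4db, a protease that processes ATG8 proteins in autophagy, had 8.36 FPKM in DiBP, 8.99 FPKM in DBP, 4.86 FPKM in DBP+DiBP and 1.22 FPKM in control testis, and was the only member past 2-fold of 30 autophagy genes.

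Among contractile genes past 2-fold, most of fast skeletal muscle were higher in DiBP and those of smooth muscle were lower. Fast skeletal muscle genes counted 11 higher and 1 lower of 40, and parvalbumins, the calcium buffers of fast fibres, 4 higher of 5. These 4 parvalbumins are also among the 11, so the counts overlap, and pvalb5 shares its values with pvalb1. The parvalbumin list was added after the values had been seen. pvalb4 had 52.9 FPKM in DiBP, 9.8 FPKM in DBP, 2.34 FPKM in DBP+DiBP and 19.5 FPKM in control testis. pvalb2 had 19.1 FPKM in DiBP, 2.7 FPKM in DBP, 1.45 FPKM in DBP+DiBP and 3.54 FPKM in control testis, and pvalb3 had 12.2 FPKM in DiBP, 1.93 FPKM in DBP, 1.37 FPKM in DBP+DiBP and 1.92 FPKM in control testis. The DiBP library was the highest of the 4 in all of these. actc1b, a cardiac and fast muscle actin, had 35.8 FPKM in DiBP, 10.1 FPKM in DBP, 9.61 FPKM in DBP+DiBP and 9.74 FPKM in control testis. ckmb, a muscle creatine kinase, had 6.93 FPKM in DiBP, 1.1 FPKM in DBP, 0.44 FPKM in DBP+DiBP and 2.94 FPKM in control testis. TPM4 and mybpc2b, also among the 11, were highest in DBP. Of the 40 members of the sarcomere list 22 lay above 0 and 18 below 0. Its median was 0.26, but -0.10 among the 12 members averaging 5 FPKM or more, of which 4 were higher and 1 lower. The lower gene was tpm4a, at 13.1 FPKM in DiBP against 32.4 FPKM in control testis. TNNT3, a fast troponin T, had 3.55 FPKM in DiBP, 0.409 FPKM in DBP, 0.0913 FPKM in DBP+DiBP and 0.556 FPKM in control testis and would not have passed the filter without its value in DiBP. A further gene with the symbol TNNT3 went the other way, at 0.775 FPKM in DiBP against 1.99 FPKM in control testis. The fixed skeletal muscle markers summed to 117.5 FPKM in DiBP and 42.8 FPKM in control, with 6 of 12 higher, 0 lower, and none at 0 in either library. The heavy chain myhz2 was under the filter, at 0.0563 against 0.116 FPKM in DiBP against control testis, and ACTA1 copies had 2.33 against 5.18 FPKM and 0.968 against 1.59 FPKM. Whether muscle carried along with the DiBP testis had a part in these values was not tested.

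Smooth muscle and pericyte genes were on the lower side. Of 14 measured genes, out of 34 detected, 6 were lower and none higher, with a median of -0.68. MYL9, the regulatory light chain of smooth muscle myosin, had 5.8 FPKM in DiBP, 1.9 FPKM in DBP, 15.4 FPKM in DBP+DiBP and 31.5 FPKM in control testis. DBP was lowest and control highest, and the log2 difference of DiBP from control was -2.26. A further gene with that symbol had 30.0 FPKM in DiBP against 33.8 FPKM in control. The 2 TAGLN genes, encoding transgelin, had 143 FPKM in DiBP, 474 FPKM in DBP, 1269.6 FPKM in DBP+DiBP and 302 FPKM in control testis and 21.4 FPKM in DiBP, 15.5 FPKM in DBP, 53.7 FPKM in DBP+DiBP and 47.7 FPKM in control testis. The first of these was highest in DBP+DiBP. rgs5b and RGS5, pericyte regulators of G protein signalling, had 6.07 against 17.3 FPKM and 1.26 against 5.46 FPKM in DiBP against control. SMTNL2, a smoothelin-like protein, had 2.08 FPKM in DiBP, 1.68 FPKM in DBP, 2.08 FPKM in DBP+DiBP and 8.13 FPKM in control testis, with control above every exposed library. The smooth muscle markers summed to 185.7 FPKM in DiBP, 533.7 FPKM in DBP, 1484 FPKM in DBP+DiBP and 381.0 FPKM in control.

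**Figure D5:**
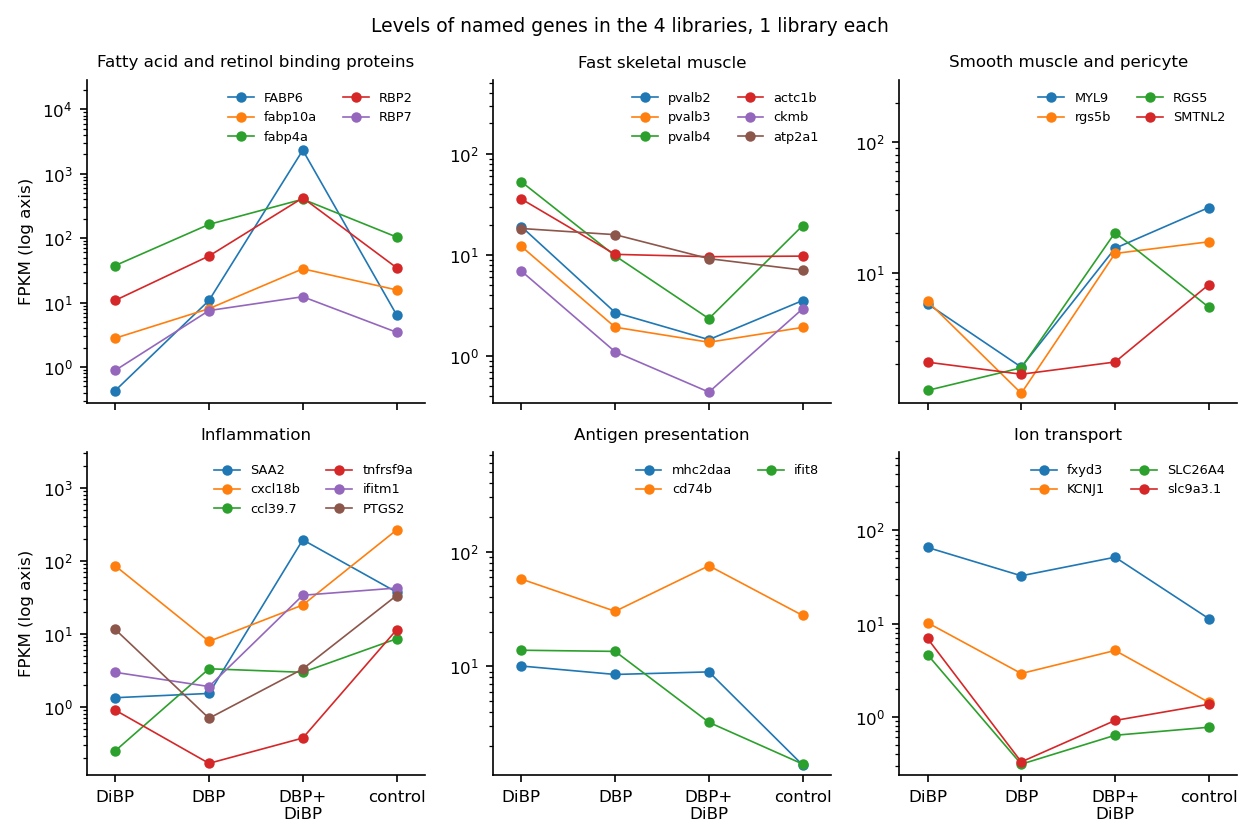
FPKM on a log axis for named genes of 6 groups in the DiBP, DBP, DBP+DiBP and control libraries, 1 library each, with lines joining the values of a gene. The fast skeletal muscle genes plotted are highest in DiBP, and the smooth muscle and pericyte genes plotted are lower in DiBP than in control. The fatty acid and retinol binding genes plotted are lowest in DiBP. The antigen presentation panel holds mhc2daa, cd74b and ifit8, all lowest in control, and ifit8 belongs to the interferon-induced list instead. Of the 28 measured antigen presentation genes 19 had a difference below 0.

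Proteins that carry lipids within cells were on the lower side in DiBP. Fatty acid binding proteins move fatty acids and bile acids through the cytoplasm, and cellular retinol binding proteins do the same for vitamin A. Of 18 measured genes of both families 8 were lower and none higher, with a median of -0.50. fabp4a, the adipocyte and endothelial type, had 37.5 FPKM in DiBP, 164 FPKM in DBP, 403 FPKM in DBP+DiBP and 104 FPKM in control testis. RBP2, a retinol binding protein of absorptive cells, had 10.8 FPKM in DiBP, 52.8 FPKM in DBP, 422 FPKM in DBP+DiBP and 34.8 FPKM in control testis. fabp10a, the liver type, had 2.8 FPKM in DiBP, 8.04 FPKM in DBP, 33.4 FPKM in DBP+DiBP and 15.7 FPKM in control testis, and FABP6, the ileal bile acid binder, had 0.43 FPKM in DiBP, 10.8 FPKM in DBP, 2323 FPKM in DBP+DiBP and 6.45 FPKM in control testis. RBP7 had 0.886 FPKM in DiBP, 7.51 FPKM in DBP, 12.3 FPKM in DBP+DiBP and 3.46 FPKM in control testis. DiBP was the lowest library and DBP+DiBP the highest for every one of these 5 genes. The rest of the 8 lower genes differed from this order. FABP7 and FABP1 were lowest in DBP, and fabp10b was highest in control. With equal totals 6 of the 18 were lower.

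Apolipoproteins, which carry lipids in lipoprotein particles, had 4 of 16 lower and none higher, although their median was -0.08. With a filter on DiBP and control alone 11 were measured, 4 were lower, and the median was -0.49. apoeb had 175 FPKM in DiBP, 81.4 FPKM in DBP, 404 FPKM in DBP+DiBP and 390.3 FPKM in control testis. apoc1 had 55.4 FPKM in DiBP, 39.2 FPKM in DBP, 199.6 FPKM in DBP+DiBP and 113 FPKM in control testis. apoa1b had 0.924 FPKM in DiBP, 5.44 FPKM in DBP, 198 FPKM in DBP+DiBP and 12.4 FPKM in control testis, and apoa2 had 1.18 FPKM in DiBP, 9.26 FPKM in DBP, 209 FPKM in DBP+DiBP and 6.71 FPKM in control testis. The first 2 were abundant in every library, and the others stood out in DBP+DiBP. Hepatocyte secretory genes counted 3 higher and 5 lower of 28, or of 19 with a filter on DiBP and control alone. Of the lower genes, fabp10a, apoa1b and apoa2 are also counted in the lipid carrier lists above, so the counts overlap. tfa, the iron carrier transferrin, had 0.409 FPKM in DiBP, 2.08 FPKM in DBP, 54.2 FPKM in DBP+DiBP and 16.8 FPKM in control testis. On the other side ahsg1, a fetuin, had 10.3 FPKM in DiBP against 3.04 FPKM in control testis, and TTR, the thyroid hormone carrier transthyretin, had 4.79 FPKM in DiBP against 1.81 FPKM in control testis. Pancreatic digestive enzymes counted 2 higher and 3 lower of 24. One of the higher genes shares its values with a haem synthesis gene and is uncertain. prss59.2, a trypsin, had 15.2 FPKM in DiBP, 40.6 FPKM in DBP, 102 FPKM in DBP+DiBP and 39.1 FPKM in control testis, and cela1.3, an elastase, had 1.01 FPKM in DiBP, 4.56 FPKM in DBP, 21 FPKM in DBP+DiBP and 13.4 FPKM in control testis. The liver markers summed to 15.98 FPKM in DiBP and 61.5 FPKM in control, with 4 of 10 lower and 1 higher. The pancreas markers summed to 99.2 FPKM in DiBP and 151.3 FPKM in control, with 2 of 7 lower. The gut epithelium markers summed to 2.46 FPKM in DiBP, 12.4 FPKM in DBP, 2619 FPKM in DBP+DiBP and 9.02 FPKM in control, and none of these markers was at 0 in DiBP or control. What other tissue in the dissected samples contributed to these differences was not tested.

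Few of the enzymes that use these lipids passed 2-fold. Fatty acid oxidation and PPAR targets, the gene set that phthalate metabolites activate in rodent liver, counted 1 higher and 1 lower of 55, near the shares over all genes. ACSM3, a medium-chain acyl-CoA synthetase, had 3.59 FPKM in DiBP against 0.589 FPKM in control testis, and ACADSB, a branched-chain acyl-CoA dehydrogenase, had 3.69 FPKM in DiBP against 8.78 FPKM in control testis. Cholesterol synthesis and uptake counted 2 higher and 0 lower of 25, among them SC5D, a sterol desaturase, at 3.06 FPKM in DiBP against 0.836 FPKM in control testis. None of 21 genes of fatty acid and glycerolipid synthesis passed 2-fold. Retinoic acid metabolism counted 2 higher of 38. CYP26A1, which degrades retinoic acid, had 26.2 FPKM in DiBP, 24.3 FPKM in DBP, 42.7 FPKM in DBP+DiBP and 6.17 FPKM in control testis, with control the lowest library. LRAT, which stores retinol as esters, had 5.12 FPKM in DiBP, 0.864 FPKM in DBP, 1.53 FPKM in DBP+DiBP and 0.665 FPKM in control testis, with DiBP the highest. ALDH1A2, which makes retinoic acid, had 53.4 FPKM in DiBP against 72.8 FPKM in control testis.

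Early response genes past 2-fold were all lower in DiBP. AP-1, Egr and Krueppel-like factors, many of them switched on within minutes by growth factors and stress, counted 6 lower and 0 higher of 36. Of the 36, however, 15 lay above 0 and 21 below 0, and the median was -0.22, or -0.11 with equal totals. Together they summed to 1137 FPKM in DiBP and 1150 FPKM in control. FOSB had 11.2 FPKM in DiBP, 2.62 FPKM in DBP, 10.2 FPKM in DBP+DiBP and 36.7 FPKM in control testis, and FOSL1 had 6.59 FPKM in DiBP, 1.44 FPKM in DBP, 4.31 FPKM in DBP+DiBP and 20.7 FPKM in control testis. JUND had 7.4 FPKM in DiBP, 1.72 FPKM in DBP, 7.47 FPKM in DBP+DiBP and 20.4 FPKM in control testis. These AP-1 subunits were highest in control and lowest in DBP, with DiBP between. The zinc finger factors EGR2 and egr4 had 2.28 against 7.87 FPKM and 1.38 against 6.97 FPKM in DiBP against control, and egr4 met the filter only through control. The dual-specificity phosphatases DUSP5 and DUSP2, which switch off MAP kinases and are induced by them, had 11.4 against 35.6 FPKM and 9.65 against 28.8 FPKM. Their list, of MAP kinase phosphatases and feedback inhibitors, counted 4 lower and 0 higher of 47. Its remaining lower members were RGS5 and rgs5b, which are also counted among the pericyte genes above. TIMP2, a metalloproteinase inhibitor, had 10.5 FPKM in DiBP, 0.722 FPKM in DBP, 3.45 FPKM in DBP+DiBP and 28.2 FPKM in control testis. f3b, a tissue factor that starts coagulation, had 17.6 FPKM in DiBP, 5.09 FPKM in DBP, 20.04 FPKM in DBP+DiBP and 36.6 FPKM in control testis. Among 24 genes of p53 and its targets 3 were lower and none higher. They were GADD45B at 8.9 against 19.5 FPKM, GADD45G at 3.59 against 8.79 FPKM and PHLDA3 at 0.881 against 2.8 FPKM in DiBP against control. PHLDA3 averaged under 1 FPKM without control. With equal totals none of the 24 was lower, and the median was 0.06 (-0.08 as reported).

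Most inflammatory messengers past 2-fold were lower as well. Chemokines and their receptors counted 7 lower and 0 higher of 43, with a median of -0.32. cxcl18b, a CXC chemokine of fish, had 85.1 FPKM in DiBP, 7.86 FPKM in DBP, 24.8 FPKM in DBP+DiBP and 264 FPKM in control testis. cxcl8a, an attractant of neutrophils, had 3.57 FPKM in DiBP, 0 FPKM in DBP, 2.04 FPKM in DBP+DiBP and 11.3 FPKM in control testis. ccl39.7 had 0.249 FPKM in DiBP, 3.31 FPKM in DBP, 2.96 FPKM in DBP+DiBP and 8.52 FPKM in control testis, and ccl35.1 had 8.01 FPKM in DiBP, 2.55 FPKM in DBP, 18.7 FPKM in DBP+DiBP and 19.3 FPKM in control testis. Control exceeded each exposed library in these 4 genes. Of the remaining lower genes, XCR1 and ccl20a.3 were highest in DBP+DiBP, and ccl20b was highest in DBP. XCR1 and ccl20b share their values with other genes and are uncertain. For ccl20b the other gene is tfr1b, which is also counted in iron handling. Interleukins, TNF and their receptors counted 3 lower and 0 higher of 41. Of these 3 genes 2 met the filter only through control, so that their calls follow in part from the filter. One was tnfrsf9a, a costimulatory TNF receptor, which had 0.898 FPKM in DiBP, 0.167 FPKM in DBP, 0.372 FPKM in DBP+DiBP and 11.3 FPKM in control testis. il34, a growth factor of macrophages, had 2.77 FPKM in DiBP against 8.15 FPKM in control testis. Acute phase and inflammatory mediators counted 1 higher and 4 lower of 27, and 1 of the lower genes met the filter only through control. PTGS2, the inducible cyclooxygenase of prostaglandin synthesis, had 11.5 FPKM in DiBP, 0.694 FPKM in DBP, 3.29 FPKM in DBP+DiBP and 33.3 FPKM in control testis. The prostaglandin receptor PTGER4 had 9.57 FPKM in DiBP, 3.93 FPKM in DBP, 8.25 FPKM in DBP+DiBP and 3.75 FPKM in control testis, higher in DiBP than in control. leap2, an antimicrobial peptide of liver, had 2.34 FPKM in DiBP against 12.2 FPKM in control testis.

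Of 28 antigen presentation genes 3 were higher in DiBP and none lower, while 19 lay below 0 and the median was -0.12. The 3 higher genes all belonged to the class II pathway that leukocytes use to present peptides. mhc2dab, a class II beta chain, had 15.4 FPKM in DiBP, 18.2 FPKM in DBP and 1.78 FPKM in DBP+DiBP, and was listed at 0 in control. mhc2daa, the alpha chain, had 10.1 FPKM in DiBP, 8.49 FPKM in DBP, 8.94 FPKM in DBP+DiBP and 1.37 FPKM in control testis. cd74b, the invariant chain, had 57.8 FPKM in DiBP, 30.2 FPKM in DBP, 75.5 FPKM in DBP+DiBP and 27.8 FPKM in control testis. Its duplicated copy cd74a, a leukocyte marker fixed here, had 135 FPKM in DiBP against 117 FPKM in control testis and stayed within 2-fold. Interferon-induced genes were split, with 3 higher and 3 lower of 61. ifit8 had 13.8 FPKM in DiBP, 13.5 FPKM in DBP, 3.24 FPKM in DBP+DiBP and 1.4 FPKM in control testis, and parp14rs3, of the PARP14 family, had 10.4 FPKM in DiBP, 12.1 FPKM in DBP, 7.84 FPKM in DBP+DiBP and 2.67 FPKM in control testis. ifi27.5 had 1.52 FPKM in DiBP, 4.39 FPKM in DBP, 11.8 FPKM in DBP+DiBP and 7.56 FPKM in control testis. Among 22 macrophage and neutrophil genes the 3 higher ones were all granulins, secreted growth factors of macrophages. grna.2 had 73.5 FPKM in DiBP, 7.04 FPKM in DBP, 1170.3 FPKM in DBP+DiBP and 13.7 FPKM in control testis, and grna.1 had 36.5 FPKM in DiBP, 17.1 FPKM in DBP, 1609 FPKM in DBP+DiBP and 16.6 FPKM in control testis. Among 10 lymphocyte genes 3 were higher and none lower, while 5 lay above 0, 5 lay below 0, and the median was -0.005. RAG2, a recombinase subunit for antigen receptors, had 59.7 FPKM in DiBP, 45.2 FPKM in DBP, 33.3 FPKM in DBP+DiBP and 25.6 FPKM in control testis. GATA3, a T cell factor, had 9.31 FPKM in DiBP against 3.39 FPKM in control testis. The remaining higher gene, ighv1-3, shares its values with other genes, and its name is uncertain. The leukocyte markers summed to 216.0 FPKM in DiBP and 166.4 FPKM in control, with 1 of 7 higher. ptprc, the pan-leukocyte marker CD45, had 1.15 FPKM in DiBP against 0.969 FPKM in control testis, and lyz, the lysozyme of myeloid cells, had 5.89 FPKM in DiBP against 7.58 FPKM in control testis.

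Monocarboxylate and bicarbonate carriers, with sodium-proton exchangers, counted 5 higher and 0 lower of 33, a median of 0.35, and 26 above 0. SLC4A8, a sodium-driven bicarbonate exchanger, had 22.1 FPKM in DiBP, 16.8 FPKM in DBP, 7.16 FPKM in DBP+DiBP and 8.96 FPKM in control testis. slc9a3.1, an epithelial sodium-proton exchanger, had 6.92 FPKM in DiBP, 0.328 FPKM in DBP, 0.913 FPKM in DBP+DiBP and 1.36 FPKM in control testis, and SLC26A4, the anion exchanger pendrin, had 4.64 FPKM in DiBP, 0.31 FPKM in DBP, 0.634 FPKM in DBP+DiBP and 0.773 FPKM in control testis. Both of these were high in DiBP alone and met the filter only through DiBP, so 2 of the 5 calls follow in part from the filter. SLC4A11 had 2.56 FPKM in DiBP, 3.16 FPKM in DBP, 2.57 FPKM in DBP+DiBP and 0.237 FPKM in control testis, low in control alone. Potassium channels counted 4 higher and 1 lower of 33, with 25 above 0. KCNJ1, an inward rectifier of transporting epithelia, had 10.2 FPKM in DiBP, 2.91 FPKM in DBP, 5.14 FPKM in DBP+DiBP and 1.43 FPKM in control testis. kcnn1b, a small-conductance calcium-activated channel, had 31.4 FPKM in DiBP, 19.95 FPKM in DBP, 17 FPKM in DBP+DiBP and 11.2 FPKM in control testis. kcnh6a, of the ERG type, had 25.5 FPKM in DiBP, 15.8 FPKM in DBP, 15.5 FPKM in DBP+DiBP and 10.3 FPKM in control testis. KCNK18, a 2-pore channel, had 5.12 FPKM in DiBP, 1.98 FPKM in DBP, 0.431 FPKM in DBP+DiBP and 0.923 FPKM in control testis. The accessory subunit KCNE4 was lower, at 0.419 FPKM in DiBP against 2.25 FPKM in control testis. In all 4 higher channels the DiBP library stood above the other 3.

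Of 12 sodium pump and FXYD genes 2 were higher and 1 lower, 7 lay below 0, and the median was -0.04. fxyd3, a regulator of the sodium pump, had 65.5 FPKM in DiBP, 32.5 FPKM in DBP, 51.5 FPKM in DBP+DiBP and 11.3 FPKM in control testis, and its relative fxyd2 had 0.473 FPKM in DiBP, 0.979 FPKM in DBP, 11.5 FPKM in DBP+DiBP and 2.15 FPKM in control testis. Organic anion and cation carriers counted 4 higher and 0 lower of 45. slc22a13a had 2.56 FPKM in DiBP, 8.12 FPKM in DBP, 21.6 FPKM in DBP+DiBP and 0.106 FPKM in control testis, and abcb5, an efflux pump of the P-glycoprotein family, had 4.53 FPKM in DiBP, 1.29 FPKM in DBP, 0.974 FPKM in DBP+DiBP and 1.32 FPKM in control testis. ABCC9, the regulatory subunit of ATP-sensitive potassium channels, had 4.64 FPKM in DiBP against 1.65 FPKM in control testis. Aquaporins had 2 of 6 lower and none higher. AQP8 had 8.57 FPKM in DiBP against 18.5 FPKM in control testis, and AQP1 had 2.35 FPKM in DiBP against 6.24 FPKM in control testis. STIM1, the calcium sensor that opens store-operated channels, had 2.56 FPKM in DiBP, 0.906 FPKM in DBP, 0.389 FPKM in DBP+DiBP and 0.292 FPKM in control testis. It was the 1 gene past 2-fold of 28 calcium and sperm channel genes, but it met the filter only through DiBP, so its call follows in part from the filter.

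Cyclic nucleotide signalling counted 4 higher and 3 lower of 40. pde4ca, a cyclic AMP phosphodiesterase, had 5.53 FPKM in DiBP against 1.23 FPKM in control testis. ADCY3, an adenylyl cyclase, had 7.67 FPKM in DiBP against 2.12 FPKM in control testis. prkacbb, a catalytic subunit of protein kinase A, was listed at 0 in DiBP, with 1.97 FPKM in DBP, 0.389 FPKM in DBP+DiBP and 2.02 FPKM in control, and averaged under 1 FPKM without control. Heterotrimeric G protein subunits, a list added after the values had been seen, counted 2 higher and 0 lower of 33, with a median of 0.42. gna15.1 had 13.2 FPKM in DiBP against 5.38 FPKM in control testis, and GNAI3 had 22.1 FPKM in DiBP against 10.2 FPKM in control testis. PLCXD2, a phospholipase of the PLC-X family, had 3.87 FPKM in DiBP, 2.01 FPKM in DBP, 2.71 FPKM in DBP+DiBP and 0.0838 FPKM in control testis. ppp2r3b, a regulatory subunit of protein phosphatase 2A, had 15.4 FPKM in DiBP against 4.52 FPKM in control testis.

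None of 32 nuclear receptor genes, the hormone and lipid receptors that act on DNA, passed 2-fold. Steroidogenesis and Leydig cell genes counted 1 higher and 2 lower of 29. With equal totals they counted 1 higher and 1 lower, and the median was 0.008 (-0.11 as reported). The Leydig markers summed to 1155 FPKM in DiBP and 2270 FPKM in control, led by insl3 at 1044 FPKM in DiBP against 2072 FPKM in control testis. insl3 made up most of both sums and stayed just within 2-fold. STAR, the cholesterol transporter, had 64.6 FPKM in DiBP, 159 FPKM in DBP, 71.5 FPKM in DBP+DiBP and 132 FPKM in control testis. fdx1b, a ferredoxin that feeds electrons to mitochondrial steroid hydroxylases, had 12.3 FPKM in DiBP, 23.3 FPKM in DBP, 7.65 FPKM in DBP+DiBP and 33.6 FPKM in control testis. HSD11B2, which oxidises cortisol and takes part in making the main androgen of fish, had 17 FPKM in DiBP, 16.3 FPKM in DBP, 9.95 FPKM in DBP+DiBP and 6.18 FPKM in control testis. It was higher under DiBP and DBP than in control. In the androgen receptor, gonadotropin and activin list 2 genes were higher and 1 lower of 18, all of them in the activin branch. ACVR1B, a type I receptor, had 4.84 FPKM in DiBP, 4.41 FPKM in DBP, 3.55 FPKM in DBP+DiBP and 0.236 FPKM in control testis. ACVR2B, a type II receptor, had 11.6 FPKM in DiBP, 6.66 FPKM in DBP, 4.17 FPKM in DBP+DiBP and 5.17 FPKM in control testis, and INHBA, the activin A subunit, had 1.77 FPKM in DiBP, 1.32 FPKM in DBP, 0.984 FPKM in DBP+DiBP and 5.18 FPKM in control testis.

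Genes of Sertoli cells, the nurse cells of the cysts, counted 1 higher and 4 lower of 19. Over all genes the shares were 3.55% higher and 2.69% lower. With equal totals 3 of the 19 were lower. Among the 10 averaging 5 FPKM or more 1 was higher and 1 lower. krt18a.1, an intermediate filament protein, had 101 FPKM in DiBP, 65.6 FPKM in DBP, 154 FPKM in DBP+DiBP and 409 FPKM in control testis. WT1, a zinc finger factor of Sertoli cells, had 2.49 FPKM in DiBP, 4.5 FPKM in DBP, 4.15 FPKM in DBP+DiBP and 6.67 FPKM in control testis. SOX8, a relative of SOX9, had 8.72 FPKM in DiBP, 13.7 FPKM in DBP, 8.75 FPKM in DBP+DiBP and 3.76 FPKM in control testis. CLU, clusterin, had 1.71 FPKM in DiBP against 4.6 FPKM in control testis. The remaining lower gene, AQP1, is also counted among the aquaporins above. The defining markers were within 2-fold apart from WT1, and together they summed to 242.3 FPKM in DiBP and 246.8 FPKM in control. amh, the anti-Muellerian hormone, had 42.7 FPKM in DiBP against 79.1 FPKM in control testis, and gsdf, the gonadal soma derived factor, had 89.9 FPKM in DiBP against 55 FPKM in control testis.

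The insulin-like growth factor axis counted 2 higher and 1 lower of 22, while 15 lay below 0 and the median was -0.31. IGF2R, in mammals the receptor that clears IGF2 and sorts lysosomal enzymes, had 11.8 FPKM in DiBP, 7.49 FPKM in DBP, 2.05 FPKM in DBP+DiBP and 3.79 FPKM in control testis. INSR, an insulin receptor gene, had 3.46 FPKM in DiBP, 2.5 FPKM in DBP, 2.7 FPKM in DBP+DiBP and 1.1 FPKM in control testis. IGFBP1, a binding protein that restrains IGF, had 1.91 FPKM in DiBP, 1.73 FPKM in DBP, 17.5 FPKM in DBP+DiBP and 6.29 FPKM in control testis. Of 9 thyroid axis genes TTR was the 1 past 2-fold, and DIO1, a deiodinase, had 7.18 FPKM in DiBP against 4.81 FPKM in control testis. Glucocorticoid receptor and targets counted 2 higher and 2 lower of 21. sgk1, a kinase induced by glucocorticoids, had 6.26 FPKM in DiBP, 3.11 FPKM in DBP, 30.2 FPKM in DBP+DiBP and 16.8 FPKM in control testis. Neuropeptides and hormone ligands counted 1 higher and 3 lower of 24. gcga, proglucagon, had 6.93 FPKM in DiBP, 0.636 FPKM in DBP, 12.8 FPKM in DBP+DiBP and 18.5 FPKM in control testis, and the 2 genes of adrenomedullin, a vasodilator peptide, had 3.25 against 9.1 FPKM and 0.675 against 2.35 FPKM in DiBP against control.

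HMG box factors of the Sox family and homeobox factors, including the Nkx family, were put in 1 list after the values had been seen. This list counted 4 higher and 0 lower of 24. SOX4 had 9.35 FPKM in DiBP, 4.1 FPKM in DBP, 6.48 FPKM in DBP+DiBP and 2.61 FPKM in control testis, and nkx2.7 had 4.08 FPKM in DiBP, 2.51 FPKM in DBP, 1.98 FPKM in DBP+DiBP and 1.2 FPKM in control testis. Wnt signalling had 1 lower gene of 32, the nuclear effector TCF7L2, at 2.07 FPKM in DiBP against 8.24 FPKM in control testis. Notch had 1 higher of 23, its target HEY1, at 7.94 FPKM in DiBP, 8.66 FPKM in DBP, 1.9 FPKM in DBP+DiBP and 2.91 FPKM in control testis. Among 31 hypoxia genes 1 was higher and 3 lower, and they went apart. HIF1A, the oxygen-sensitive factor itself, had 13.2 FPKM in DiBP, 2.0 FPKM in DBP, 2.07 FPKM in DBP+DiBP and 1.64 FPKM in control testis, high in DiBP alone, with a log2 difference of 2.43 from control. The lower genes were IGFBP1 and both adrenomedullin genes.

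Lists of defence against chemicals and oxidants held few higher genes. Lists of this size would also hold few at the share of 3.55% over all genes. None of 19 genes of xenobiotic cytochrome P450 and aryl hydrocarbon receptor response passed 2-fold. A filter on DiBP and control alone left 14 of them, again with none past 2-fold. tiparp, a target of that receptor, had 19.9 FPKM in DiBP against 17.1 FPKM in control testis, and cyp2v1 had 18.5 FPKM in DiBP against 11.8 FPKM in control testis. Conjugating enzymes counted 0 higher and 2 lower of 38. sult2st3, a sulfotransferase, had 0.307 FPKM in DiBP, 1.44 FPKM in DBP, 1.84 FPKM in DBP+DiBP and 4.09 FPKM in control testis, and gstt1a, a glutathione transferase, had 10.2 FPKM in DiBP, 11 FPKM in DBP, 6.82 FPKM in DBP+DiBP and 27.9 FPKM in control testis. Antioxidant and redox enzymes counted 0 higher and 3 lower of 45. gpx1b, a selenium-dependent peroxidase, had 38.2 FPKM in DiBP, 25.1 FPKM in DBP, 314 FPKM in DBP+DiBP and 88.9 FPKM in control testis. MSRB1, a methionine sulfoxide reductase, had 4.13 FPKM in DiBP against 12.6 FPKM in control testis, and TXN2, mitochondrial thioredoxin, had 18.8 FPKM in DiBP against 39.4 FPKM in control testis. Metallothioneins and iron handling counted 1 higher and 3 lower of 26. Of the lower genes, MT1X was brought into the list after the values had been seen, so its call there is no support. tfr1b shares its values with ccl20b, which is also counted among the chemokines, and is uncertain. MT1X, a metal-binding metallothionein, had 17.2 FPKM in DiBP, 43 FPKM in DBP, 458 FPKM in DBP+DiBP and 102 FPKM in control testis. fthl30, a ferritin, had 9.02 FPKM in DiBP against 25.8 FPKM in control testis. SLC30A1, a zinc exporter, had 39.6 FPKM in DiBP, 24.9 FPKM in DBP, 13.1 FPKM in DBP+DiBP and 19 FPKM in control testis. Among 48 DNA repair genes 1 was lower, APEX1, the abasic site endonuclease of base excision repair, at 5.34 FPKM in DiBP, 30.7 FPKM in DBP, 2.78 FPKM in DBP+DiBP and 30.5 FPKM in control testis. The libraries formed pairs, with DiBP and DBP+DiBP low, and DiBP differed from control by -2.31 on the log2 scale.

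Glycolysis had 0 of 32 genes past 2-fold, and the sperm enzyme GAPDHS had 328 FPKM in DiBP against 299 FPKM in control testis. The tricarboxylic acid cycle had 1 lower of 25, the anaplerotic enzyme PC, at 1.45 FPKM in DiBP against 4.96 FPKM in control testis. The spliceosome, Golgi coats, the vacuolar proton pump and cytosolic tRNA synthetases had 0 of 65, 38, 22 and 19 genes past 2-fold. Nucleotide metabolism had 3 higher and 0 lower of 64. nme2b.2, a nucleoside diphosphate kinase, had 40.1 FPKM in DiBP, 11.8 FPKM in DBP, 16.1 FPKM in DBP+DiBP and 10.8 FPKM in control testis. In DNA methylation and histone modification 1 was higher and 2 lower of 77. KDM5B, a histone demethylase, had 10.2 FPKM in DiBP against 3.25 FPKM in control testis. DNMT3B, a DNA methyltransferase, had 1.93 FPKM in DiBP against 5.0 FPKM in control testis, and hdac9b, a class IIa deacetylase, had 0.481 FPKM in DiBP against 4.7 FPKM in control testis and met the filter only through control.

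Collagens counted 3 higher and 2 lower of 29, and 1 of the lower genes met the filter only through control. COL1A1, a fibrillar collagen, had 93.7 FPKM in DiBP, 101 FPKM in DBP, 88.1 FPKM in DBP+DiBP and 42.2 FPKM in control testis, and col4a5, a basement membrane collagen, had 13.6 FPKM in DiBP, 6.29 FPKM in DBP, 14.3 FPKM in DBP+DiBP and 3.59 FPKM in control testis. col18a1a, a collagen of vascular and epithelial basement membranes, had 2.08 FPKM in DiBP, 5.13 FPKM in DBP, 6.74 FPKM in DBP+DiBP and 8.64 FPKM in control testis. Matrix glycoproteins counted 2 higher and 3 lower of 35. NID1, nidogen, had 4.13 FPKM in DiBP against 1.39 FPKM in control testis, and THBS1, thrombospondin, had 4.33 FPKM in DiBP against 9.74 FPKM in control testis. Claudins and tight junctions, which seal the barrier between Sertoli cells, counted 1 higher and 2 lower of 34. cldn7b had 4.54 FPKM in DiBP, 7.71 FPKM in DBP, 6.42 FPKM in DBP+DiBP and 15.7 FPKM in control testis, and CLDN2 had 10.4 FPKM in DiBP, 18.6 FPKM in DBP, 18.3 FPKM in DBP+DiBP and 25.1 FPKM in control testis. cldn3d had 10.8 FPKM in DiBP, 12.3 FPKM in DBP, 53 FPKM in DBP+DiBP and 4.43 FPKM in control testis. Epithelial keratins and desmosome genes counted 1 higher and 2 lower of 26, while 19 lay below 0 and the median was -0.24. The lower genes were krt8 and krt18a.1, the latter also counted among the Sertoli cell genes above. krt8 had 82.5 FPKM in DiBP against 190 FPKM in control testis, but it shares its values with another identifier. krt5, a keratin of basal epithelium, had 8.94 FPKM in DiBP, 1.06 FPKM in DBP, 2.86 FPKM in DBP+DiBP and 1.88 FPKM in control testis. Actin regulators counted 4 higher and 1 lower of 69. ARPC1B and ARPC4, subunits of the complex that branches actin filaments, went apart, with 12.7 FPKM in DiBP, 30.9 FPKM in DBP, 54.7 FPKM in DBP+DiBP and 43.6 FPKM in control testis and 14.3 FPKM in DiBP, 13.4 FPKM in DBP, 31.5 FPKM in DBP+DiBP and 5.39 FPKM in control testis.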

How the data were processed

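Testis RNA was sequenced as 4 libraries, 1 per group. The authors deposited 1 value per identifier and library, read here as FPKM, a unit that neither headers nor labels give; the values were not whole and their totals differed. HISAT2, HTSeq 0.6.1 and GRCz10 are named per the submitters' processing notes, with no account of which made the values. Few low values were exact multiples of 1 read, so reads were not recovered and no count test was run. Each file held 49610 identifiers, of which 14544 were assembled loci. Ensembl genes were named from a supplied table, which for symbols in capitals drops the letter of duplicated copies, so 2 genes can share a symbol. Of the genes compared, 1032 shared their values with another gene, and names drawn from them are uncertain.

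Ratios, counts and medians were computed in Python 3.11.15 with pandas 2.3.3, numpy 2.4.6 and matplotlib 3.10.9, and the counting was tested on simulated data. Named genes were the 12 highest and 12 lowest ratios with a mean of at least 5 FPKM, up to 5 members past 2-fold per list, the 2 most abundant members where fewer than 2 passed, and cell type markers. The few other genes named, those at the 2-fold limit and further copies of a symbol, were chosen after their values were seen. The comparison and the 116 lists were chosen with earlier results of these data known. After the values had been seen, the name patterns of 23 lists were corrected, which also dropped tfa from the Sertoli list, dropped apoc1 from the macrophage list and brought MT1X into the metallothioneins. At the same stage 6 lists were added, for TIM and TOM, parvalbumins, tubulin ligases, G proteins, Sox and homeobox factors, and cullins, so their patterns are descriptions and no support. A few genes are not reported here. No reads, genome or sequences were used.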

Additional observations from a re-analysis of the deposited data

Results flagged for a closer look

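The assembled loci, which carry no Ensembl identifier and entered no list, were examined apart because they lie outside the comparison of genes. Of 7562 loci with a mean of at least 1 FPKM, 514 (6.80%) were at least 2-fold higher in DiBP than in control and 477 (6.31%) at least 2-fold lower. The shares over Ensembl genes were 3.55% and 2.69%. With 1 library per group the difference between these shares was not tested.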

How the results depend on the processing

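With 1 library per group no replicate could be left out, and no counting error is known because the files give no reads. No paired analysis was possible because each group has 1 library and no result comes from a test. The counts of genes 2-fold higher and lower in DiBP, 563 and 426 as reported, depended on the pseudocount, at 1041 and 874 with 0.1 and at 166 and 123 with 5. They were 332 and 240 with a mean of at least 5 FPKM, where fewer genes were compared, and 1077 and 903 with assembled loci included. A threshold of 1.5-fold gave 1974 and 1460 genes, and one of 4-fold gave 57 and 36. With equal totals the counts were 800 and 308 and the median over all genes moved to 0.14, because every ratio then shifts upward. Counts under no filter, a filter on DiBP and control alone, median-of-ratios scaling, or every Ensembl row stayed within 1.5 times. Of 3202 values of named genes under these alternatives none past 2-fold changed sign, and 183 moved by more than 0.5 on the log2 scale, all under pseudocounts of 0.1 or 5. Of 114 list medians 44 changed sign under some alternative, and each of these was under 0.3 in size as reported. In 15 cases a list median moved by more than 0.3, and 8 of these came with a mean of at least 5 FPKM, where fewer members were compared. There the median was -1.002 for fatty acid and retinol binding proteins (-0.50 as reported), -1.07 for smooth muscle and pericyte genes (-0.68), 0.74 for potassium channels (0.18) and 0.72 for calcium and sperm channels (0.19). With no filter that of smooth muscle and pericyte genes was -0.09, and with a filter on DiBP and control alone that of apolipoproteins was -0.49 (-0.08). The tolerances of 0.5 and 0.3 were set after the list medians had been seen.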

Other observations

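Several genes without a settled name had ratios beyond those of most named genes, among genes averaging at least 5 FPKM. ENSDARG00000099356 had 43.5 FPKM in DiBP, 57.3 FPKM in DBP, 3.57 FPKM in DBP+DiBP and 1.03 FPKM in control testis. si:dkeyp-13d11.1 had 26.8 FPKM in DiBP, 26.1 FPKM in DBP, 2.01 FPKM in DBP+DiBP and 0.558 FPKM in control testis, and si:dkey-6f10.5 had 22.5 FPKM in DiBP, 23.2 FPKM in DBP, 2.17 FPKM in DBP+DiBP and 0.499 FPKM in control testis. In all 3 the single exposures were high and DBP+DiBP and control low, the arrangement seen in dnaaf9 and stag3. On the other side ENSDARG00000100275 was listed at 0 in DiBP and in DBP, with 27.4 FPKM in DBP+DiBP and 21.7 FPKM in control. ENSDARG00000101479 had 7.55 FPKM in DiBP, 3.72 FPKM in DBP, 2814 FPKM in DBP+DiBP and 187 FPKM in control testis. si:busm1-57f23.1 had 4.67 FPKM in DiBP, 2.37 FPKM in DBP, 8.78 FPKM in DBP+DiBP and 33.8 FPKM in control testis. These genes were picked after their values were seen.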
